A study of Rattus norvegicus with 12 samples.

Results

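The genes described here handle retinol, the alcohol form of vitamin A, or belong to the alcohol and aldehyde dehydrogenases that act on retinol, retinal, ethanol or acetaldehyde. They are the 9 genes Rbp4, Ttr, Lrat, Adh1, Adh4, Aldh1a1, Aldh1a2, Aldh2 and Rdh16, out of 14217 genes measured. They were chosen by symbol with earlier results of these data known, as were the further gene lists used below. Counts of these genes beside the share of all genes are therefore descriptions. The platform annotation gave a probe set to 9 of 9. Adh1 now carries the symbol Adh1c in the rat and is the only one with 2 probe sets of its own. Where a gene has several probe sets, the brightest one over all 12 arrays stands for it. RefSeq on build GRCr8 places Rbp4 at chr1:245306349-245313551, Ttr at chr18:12216684-12225972, Lrat at chr2:170562148-170571212, Adh1 at chr2:229470703-229482291, Adh4 at chr2:229622092-229640120, Aldh1a1 at chr1:227426939-227579497, Aldh1a2 at chr8:80758641-80837891, Aldh2 at chr12:40610244-40643220 and Rdh16 at chr7:65499763-65510304.

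Liver RNA of rats labelled male was measured on 12 Affymetrix arrays. The groups were LEC tumor liver at 67 weeks (4 arrays), LEC nontumor liver at 67 weeks (4 arrays), LEC liver at 4, 26 and 39 weeks (1 array each) and LEA liver at 67 weeks (1 array). LEC is the Long Evans Cinnamon rat (LEC/Crj), whose defective copper-exporting ATPase Atp7b lets copper accumulate in the liver, with hepatitis and spontaneous liver tumors; LEA is the Long Evans Agouti control strain. Each tumor or nontumor array held RNA mixed from 2 of 8 paired specimens of tumor and adjacent liver. Each other array held 1 RNA pool of an unstated number of rats. P-values thus measure the spread between such mixtures. Tumor and nontumor arrays come from these paired specimens, but the labels do not tell which tumor array matches which nontumor array. The main tests therefore treated the arrays as unpaired. Whether the other pools share animals is not stated either. No treatment was given in the labels.

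Dietary vitamin A reaches the liver as retinyl ester. Hepatocytes free the retinol, secrete part of it bound to retinol-binding protein and pass part to stellate cells, which store it as ester in lipid droplets. Retinol is oxidised to retinal by microsomal retinol dehydrogenases and by cytosolic alcohol dehydrogenases, and retinaldehyde dehydrogenases turn retinal into retinoic acid, the ligand of nuclear receptors. The alcohol dehydrogenases and mitochondrial Aldh2 also oxidise ethanol and its product acetaldehyde.

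Values are log2 expression as deposited, after RMA. A 1-unit difference is a 2-fold change of the signal, and probe sets are not compared with each other in level. A difference was called when limma's adjusted p, taken over 31042 probe sets, was under 0.05. The number of arrays limits the precision, and the lone arrays have no spread of their own.

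The labels call every rat male, yet 10 of the 12 arrays carried Xist, the RNA of the inactive X chromosome, at 11.36 to 13.12, and the Y-linked Eif2s3y at 3.65 to 3.81. The arrays labelled LEC 26 weeks and LEC 39 weeks went the other way, with Xist at 5.27 and 5.67 and Eif2s3y at 8.90 and 8.18. Tumor, nontumor, LEA and 4-week arrays share the first pattern, though Xist was higher on the tumor arrays (12.61 to 13.12) than on the nontumor arrays (11.40 to 11.95). Comparisons among these groups do not use the levels of the 26-week and 39-week arrays, which as lone arrays add nothing to the spread. Why 10 arrays go against their label was not tested. Any difference from the 26-week and 39-week arrays cannot be told apart from their difference in Xist and Eif2s3y. Hepatocyte markers were high on all nontumor arrays (mean of 12 genes between 12.98 and 13.21) and lower on the tumor arrays (8.97 to 12.28).

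The start regions of 4 members are shown because these genes moved furthest or in opposite directions between tumor and nontumor liver: Rbp4 and Adh4 were lower in tumor, Lrat and Aldh1a2 higher. Each is 300 bases from RefSeq on build GRCr8, 250 before to 50 after the annotated start, 5′ to 3′ along the gene's strand: Rbp4 at chr1:245313502-245313801 on the minus strand, Lrat at chr2:170571163-170571462 on the minus strand, Adh4 at chr2:229621842-229622141 on the plus strand and Aldh1a2 at chr8:80758391-80758690 on the plus strand. Capitals mark 4 motifs on either strand: the TATA box TATAAA, the CCAAT box, the GC box GGGCGG and the receptor element AGGTCA.
Rbp4: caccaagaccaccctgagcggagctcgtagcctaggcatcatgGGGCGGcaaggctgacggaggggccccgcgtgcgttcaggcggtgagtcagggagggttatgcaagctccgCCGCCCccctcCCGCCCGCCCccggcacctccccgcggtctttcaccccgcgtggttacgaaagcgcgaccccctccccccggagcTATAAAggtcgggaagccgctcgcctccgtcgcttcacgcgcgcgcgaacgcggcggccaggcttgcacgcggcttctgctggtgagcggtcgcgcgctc
Lrat: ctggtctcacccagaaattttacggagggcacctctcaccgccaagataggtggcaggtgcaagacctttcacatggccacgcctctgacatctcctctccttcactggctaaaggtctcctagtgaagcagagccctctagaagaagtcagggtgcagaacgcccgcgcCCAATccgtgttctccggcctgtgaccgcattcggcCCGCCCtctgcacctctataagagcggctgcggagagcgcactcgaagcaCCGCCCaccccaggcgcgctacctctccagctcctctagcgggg
Adh4: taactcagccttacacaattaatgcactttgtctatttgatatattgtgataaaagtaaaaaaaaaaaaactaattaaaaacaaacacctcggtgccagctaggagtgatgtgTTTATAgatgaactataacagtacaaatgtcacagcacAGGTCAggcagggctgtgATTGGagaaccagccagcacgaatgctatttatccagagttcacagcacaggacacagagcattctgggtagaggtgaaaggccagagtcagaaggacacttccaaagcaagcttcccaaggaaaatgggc
Aldh1a2: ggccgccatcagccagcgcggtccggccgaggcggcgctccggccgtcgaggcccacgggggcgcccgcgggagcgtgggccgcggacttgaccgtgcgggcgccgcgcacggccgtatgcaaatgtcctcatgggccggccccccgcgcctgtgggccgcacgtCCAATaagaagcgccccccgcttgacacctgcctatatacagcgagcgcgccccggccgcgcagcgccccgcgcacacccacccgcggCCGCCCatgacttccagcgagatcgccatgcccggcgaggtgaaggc
The Aldh1a2 and Rbp4 stretches held 47 and 40 CG dinucleotides and the Lrat stretch 19, whereas that of Adh4 held 2; the median over 33469 rat promoters of this length was 7. The Rbp4 stretch had 1 match to TATAAA, found in 14.2% of all promoters, and 4 to GGGCGG, found in 33.1%. The Adh4 stretch had 1 match each to TATAAA, to CCAAT (37.5% of promoters) and to AGGTCA (16.2% of promoters), the letters of a nuclear receptor binding element. The Lrat stretch held 1 CCAAT and 2 GGGCGG, and that of Aldh1a2 held 1 of each. A match describes these letters and is not a binding site.

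Tumor liver carried less RNA for the retinol carrier Rbp4, its plasma partner Ttr, both alcohol dehydrogenases, Aldh1a1 and Aldh2. It carried more for the ester-forming enzyme Lrat and the retinoic acid-forming enzyme Aldh1a2. Of the 9 genes, 2 were called higher and 6 lower in tumor than in nontumor liver, and Rdh16 was not called; without nontumor array 3, nontumor array 4 or tumor array 2, 2 were called higher and 3 lower. Over all genes, 38.8% were called higher and 29.2% lower, 67.9% in all. The median difference was -0.92 over the 9 genes and 0.07 over all genes. In bulk tissue, fewer cells of a type and less RNA per cell cannot be told apart. In 7 of the 9 genes no tumor array lay within the range of the nontumor arrays, 2 of them higher and 5 lower in tumor, beside 36.1% of all genes higher and 27.7% lower without overlap.

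**Figure D1:**
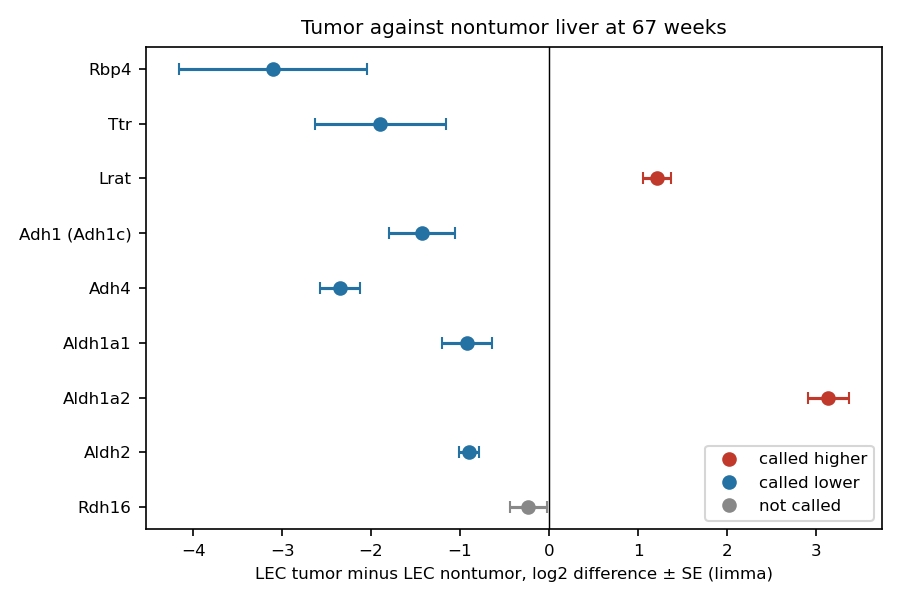
Difference between LEC tumor and LEC nontumor liver at 67 weeks for each gene, in log2 units, with the limma standard error (4 arrays per group). Aldh1a2 and Lrat lie to the right of 0 and the 6 genes called lower to the left, with Rbp4 and Ttr having the widest error.

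Rbp4, the plasma carrier that takes retinol out of the liver, stood at 11.66, 10.16, 12.81 and 6.90 on the 4 tumor arrays. On the nontumor arrays it was 13.47, 13.58, 13.44 and 13.43. Every tumor array lay below every nontumor array, and the tumor arrays ranged widely while the nontumor arrays were nearly equal (SD 2.56 in tumor and 0.07 in nontumor, n = 4 each). The mean difference was -3.10 ± 1.06 (SE), 8.55-fold lower in tumor, with a limma adjusted p of 0.0293. Tumor array 4 sets much of the size: without it the difference was -1.94 with an adjusted p of 0.0135. The call was lost without tumor array 2 or without any 1 nontumor array (limma adjusted p between 0.0546 and 0.0645).

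Ttr, transthyretin, binds Rbp4 in plasma and keeps the small complex from being filtered by the kidney, besides carrying thyroxine. It stood at 13.36, 12.11, 13.71 and 9.79 on the tumor arrays, against 14.21, 14.16, 14.12 and 14.07 on the nontumor arrays. The groups did not overlap, and tumor array 4 was again the lowest. Ttr was 3.73-fold lower in tumor (difference -1.90 ± 0.73, limma adjusted p = 0.0472). Without tumor array 4 the difference was -1.08 (adjusted p = 0.0242), and the call was lost without tumor array 2 or any 1 nontumor array (adjusted p 0.0796 to 0.0939). Over the 12 arrays Ttr and Rbp4 had a Pearson correlation of 0.99, a description in which the tumor arrays carry most of the range.

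Lrat, lecithin retinol acyltransferase, makes the retinyl esters that stellate cells store. It stood at 9.49, 9.78, 9.38 and 9.27 on the tumor arrays and at 8.21, 8.50, 8.49 and 7.88 on the nontumor arrays. All tumor arrays were above all nontumor arrays, with a gap of 0.77 between the groups. Lrat was 2.32-fold higher in tumor (1.21 ± 0.16, limma adjusted p = 0.000257). Other markers of stellate cells, its main cell type in liver, are set beside it further on.

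Adh1, the class I alcohol dehydrogenase that oxidises ethanol and can oxidise retinol, stood at 13.11, 12.02, 13.47 and 11.60 on the tumor arrays. On the nontumor arrays it was 13.96, 14.07, 13.95 and 13.93. The groups did not overlap, with tumor arrays 3 and 1 nearest to the nontumor arrays. It was 2.69-fold lower in tumor (-1.43 ± 0.37, limma adjusted p = 0.00878). Its other probe set gave the same direction with a larger difference, at 8.05 ± 0.92 in tumor and 10.83 ± 0.33 in nontumor liver (SD, n = 4 each), a difference of -2.78 ± 0.41 (adjusted p = 0.000432).

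Adh4, the class II alcohol dehydrogenase, which is liver-enriched and acts on retinol and longer-chain alcohols, had the lowest adjusted p among the members that were lower. It stood at 5.71, 5.45, 6.25 and 5.39 on the tumor arrays, against 8.28, 8.40, 7.78 and 7.73 on the nontumor arrays. The groups lay 1.48 apart. The difference was -2.35 ± 0.22, 5.10-fold lower in tumor, with a limma adjusted p of 3.92e-05. On 2 of the 4 tumor arrays Adh4 lay within the range of the probe sets for absent bacterial RNA, so the size of the fall is not exact.

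Rdh16, a microsomal retinol dehydrogenase, was at 8.29, 8.19, 8.38 and 8.28 on the tumor arrays and at 8.21, 8.76, 9.07 and 8.04 on the nontumor arrays. The groups overlapped, and the tumor arrays lay closer together than the nontumor arrays. The difference of -0.23 ± 0.21 was not called (limma adjusted p = 0.346). Its levels on the younger LEC arrays, described further on, are where this gene stood apart.

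Aldh1a1, a cytosolic enzyme that oxidises retinal to retinoic acid and also clears other aldehydes, stood at 12.20, 11.33, 11.78 and 11.31 on the tumor arrays. On the nontumor arrays it was 11.81, 12.67, 12.77 and 13.05. Nontumor array 1 lay among the tumor arrays, so the groups overlapped. The difference was -0.92 ± 0.29, 1.89-fold lower in tumor, with a limma adjusted p of 0.0197. The call was lost without nontumor array 3 or 4 or without tumor array 2 or 4 (adjusted p 0.0506 to 0.0560).

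Aldh1a2, the retinaldehyde dehydrogenase known from the embryo and from mesenchyme and mesothelium, rose the most of the 9 genes. It stood at 11.92, 12.02, 11.08 and 12.22 on the tumor arrays, against 8.45, 8.67, 8.91 and 8.64 on the nontumor arrays. The lowest tumor array was 2.17 above the highest nontumor array. Aldh1a2 was 8.80-fold higher in tumor (3.14 ± 0.23, limma adjusted p = 1.06e-05). Leaving out any 1 array kept the difference between 3.00 and 3.38.

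Aldh2, the mitochondrial enzyme that clears acetaldehyde, moved less but evenly. It was at 11.88, 11.51, 11.82 and 11.45 on the tumor arrays and at 12.55, 12.64, 12.61 and 12.44 on the nontumor arrays. The groups did not overlap. Aldh2 was 1.86-fold lower in tumor (-0.90 ± 0.11, limma adjusted p = 0.000185).

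**Figure D2:**
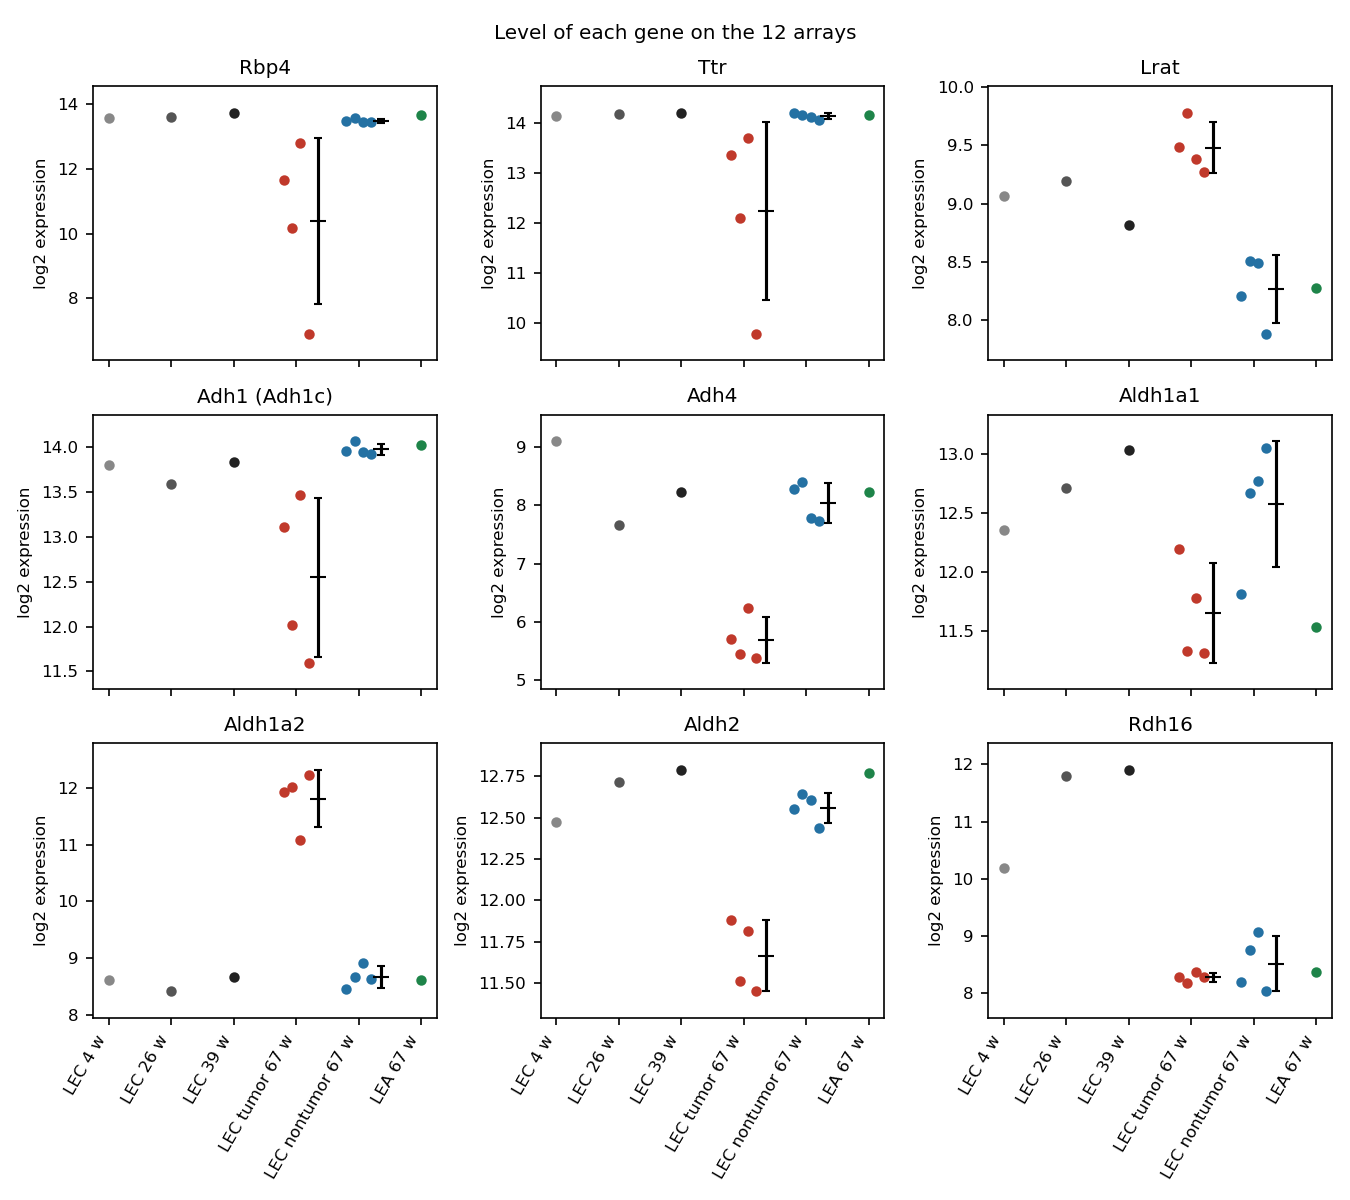
Log2 expression of the 9 genes on each of the 12 arrays, 1 panel a gene with its own axis; points are arrays and the bars beside the tumor and nontumor points are the mean ± SD of 4 arrays. In tumor, Rbp4 and Ttr spread over several log2 units below the narrow nontumor group, Lrat and Aldh1a2 stand above it, and Rdh16 is high on the 26-week and 39-week arrays.

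The 6 genes called lower did not fall alike on the 4 tumor arrays. Tumor array 4 was the lowest of the tumor arrays in 6 of 6, and tumor array 3 the highest in 4 of 6; among the 4147 genes called lower in tumor, array 4 was the lowest in 34.8% and array 3 the highest in 45.4%. Against the nontumor mean, Rbp4 was lower by -1.82, -3.32, -0.67 and -6.58 on tumor arrays 1 to 4. The mean of 12 hepatocyte markers moved by -1.45, -2.49, -0.82 and -4.13 on the same arrays, in the same order of size. Ttr and Adh1 followed the same order, Adh1 at -0.87, -1.95, -0.51 and -2.38. Aldh1a1, at -0.38, -1.25, -0.80 and -1.26, did not, since it fell less on tumor array 1 than on tumor array 3. The same held for Aldh2, which kept within a narrower range of -0.68 to -1.11. Adh4 lay within -1.80 to -2.66, but on tumor arrays 2 and 4 it was in the range of absent bacterial RNA, where a further fall would not show. Of the hepatocyte markers, 10 of 12 were called lower in tumor, among them the transcription factor Hnf4a (-1.14 ± 0.18, limma adjusted p = 0.000713), while albumin, at -0.62, was not called (adjusted p = 0.130). How much the hepatocyte content of the specimens contributes to these falls was not tested.

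**Figure D3:**
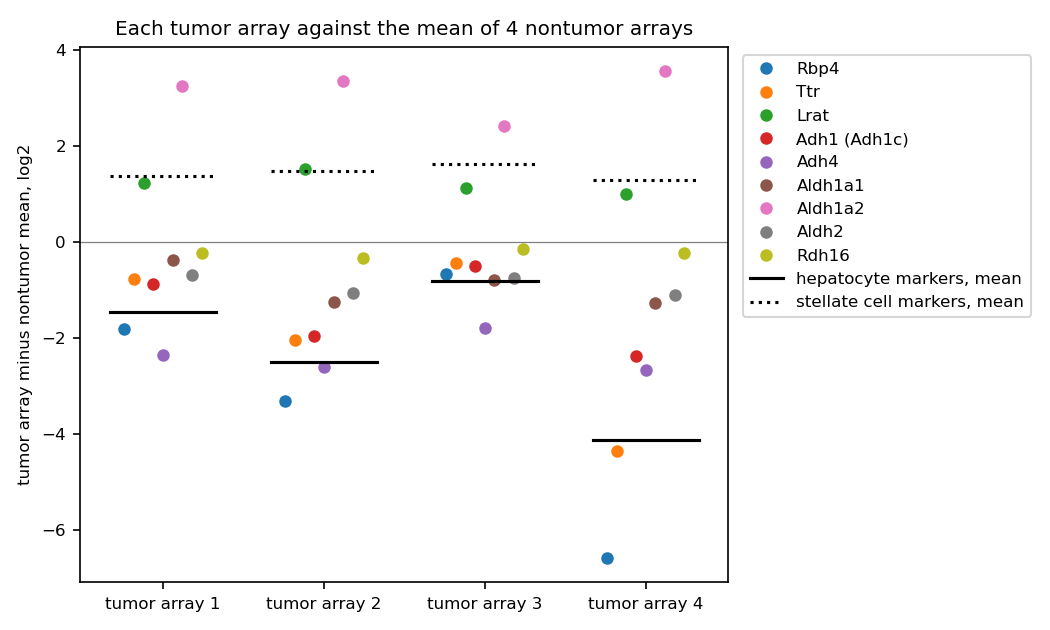
Each tumor array against the mean of the 4 nontumor arrays, in log2 units, for the 9 genes (points) and for the mean of the hepatocyte and stellate cell marker lists (lines). Rbp4, Ttr and Adh1 are lowest on tumor array 4 and highest on tumor array 3, as the hepatocyte line is; Lrat and Aldh1a2 lie above 0 on all 4 tumor arrays, Aldh1a2 between 2.41 and 3.55.

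Lrat and Aldh1a2, the genes that rose, are set beside markers of cells other than hepatocytes. Of 19 stellate cell and myofibroblast genes, 12 were called higher and 4 lower in tumor, where 38.8% of all genes were called higher and 29.2% lower, with list means of 9.89 to 10.22 on the tumor arrays and 8.36 to 8.75 on the nontumor arrays. Desmin (Des, 1.95 ± 0.17, limma adjusted p = 2.59e-05), smooth muscle actin (Acta2, 1.72) and collagen Col1a1 (2.80) rose, whereas the stellate cell genes Ngfr, Hgf, Gfap and Colec11 were called lower and Lhx2 and Reln were not called. Of 9 mesothelial genes, 6 were called higher and the other 3 were not called, with means of 8.56 to 8.92 in tumor and 6.90 to 7.37 in nontumor liver. Mesothelin (Msln) rose by 5.20 ± 0.24 (limma adjusted p = 1.47e-06) and Wt1, a transcription factor of mesothelial and stellate lineages, by 1.40 ± 0.19 (adjusted p = 0.000302); Upk1b and Efemp1 lay within the range of absent bacterial RNA on every nontumor array. The 7 bile duct genes were all called higher, with means of 11.89 to 12.03 on the tumor arrays and 7.80 to 9.02 on the nontumor arrays. The other lists did not move one way: 3 of 7 endothelial genes were called higher and 4 lower (median -0.34), 2 of 6 macrophage genes higher and 3 lower (median -0.50), and 4 of 11 T, B and NK cell genes higher and 4 lower (median -0.02). The part of these cell types in the rise of Lrat and Aldh1a2 was not tested.

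Genes that bind retinoids or take them up gave 0 members called higher and 5 lower in tumor out of 10 measured, with a median of -0.35; with limma, 5 of the 10 had an unadjusted p under 0.05, as had 10140 of all 14217 genes. The 5 of 10 called stand beside 67.9% of all genes called. Stra6l, described in the mouse as the liver's receptor for retinol-bound Rbp4, was -2.13 ± 0.18 (limma adjusted p = 2.41e-05). Scarb1, the lipoprotein receptor that also takes up carotenoids, was -0.62. The retinol receptor Stra6 was -0.28 and the cellular retinoic acid-binding protein Crabp1 -0.23, both small and both called lower (adjusted p 0.0259 for Stra6 and 0.0485 for Crabp1). Crabp2, at -0.15, was not called.

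Among 20 measured enzymes of retinyl esters, carotene and retinol oxidation, 3 were called higher and 15 lower in tumor, with a median of -0.70, beside 38.8% of all genes called higher and 29.2% lower. The retinol dehydrogenases Rdh7 and Rdh5 fell by 3.89 ± 0.75 and 2.41 ± 0.33 (limma adjusted p 0.00195 for Rdh7 and 0.000308 for Rdh5), and the carboxylesterase Ces1d, which hydrolyses retinyl esters, fell by 3.82 ± 0.84 (adjusted p = 0.00387). Rdh5 on 2 tumor arrays and Ces1d on 1 lay in the range of absent bacterial RNA, so the size of these falls is not exact. The retinal reductase Dhrs4 fell by 1.44 ± 0.15. Higher were Lpl, lipoprotein lipase (2.93 ± 0.35, adjusted p = 0.000138), Dhrs7 (0.62) and Aldh1a3, the third retinaldehyde dehydrogenase of the Aldh1a family (2.45 ± 0.24, adjusted p = 4.37e-05). Within that family Aldh1a2 and Aldh1a3 were thus called higher and Aldh1a1 lower in tumor than in nontumor liver.

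Of 11 measured genes that break down retinoic acid or act as its receptors and cofactors, 6 were called higher and 4 lower in tumor, with a median of 0.27. Among all genes, too, more were called higher (38.8%) than lower (29.2%). Cyp26a1, the retinoic acid hydroxylase that retinoic acid itself induces, was lower by -1.85 ± 0.42 (limma adjusted p = 0.00453), and Cyp26b1 was not called. The receptors split: Rarb (-1.33), Rxra (-1.56 ± 0.18, adjusted p = 0.000126) and Rxrg (-2.22) were lower. Rarg (0.84 ± 0.12, adjusted p = 0.000403), Rxrb (0.67) and Rara (0.26) were higher. Ppard, a receptor that pairs with Rxr proteins, was higher by 1.10.

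Of 22 measured other enzymes of alcohol, aldehyde and ethanol metabolism, 2 were called higher and 16 lower, with a median of -1.505, beside 38.8% of all genes called higher and 29.2% lower. The largest falls were those of Adhfe1 (-3.38 ± 0.37, limma adjusted p = 8.18e-05), a mitochondrial dehydrogenase, and of the folate enzymes Aldh1l2 (-3.32) and Aldh1l1 (-2.97). Adh5, the formaldehyde-oxidising class III enzyme found in most tissues, was lower by -0.63 ± 0.14 (adjusted p = 0.00450). Cyp2e1, the ethanol-oxidising cytochrome, was -2.13 ± 0.81 (adjusted p = 0.0444). Aldh18a1, which makes the precursor of proline, was higher by 1.33 ± 0.14 (adjusted p = 6.85e-05), whereas Aldh4a1, which breaks proline down, was -2.86 ± 0.40 (adjusted p = 0.000347).

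**Figure D4:**
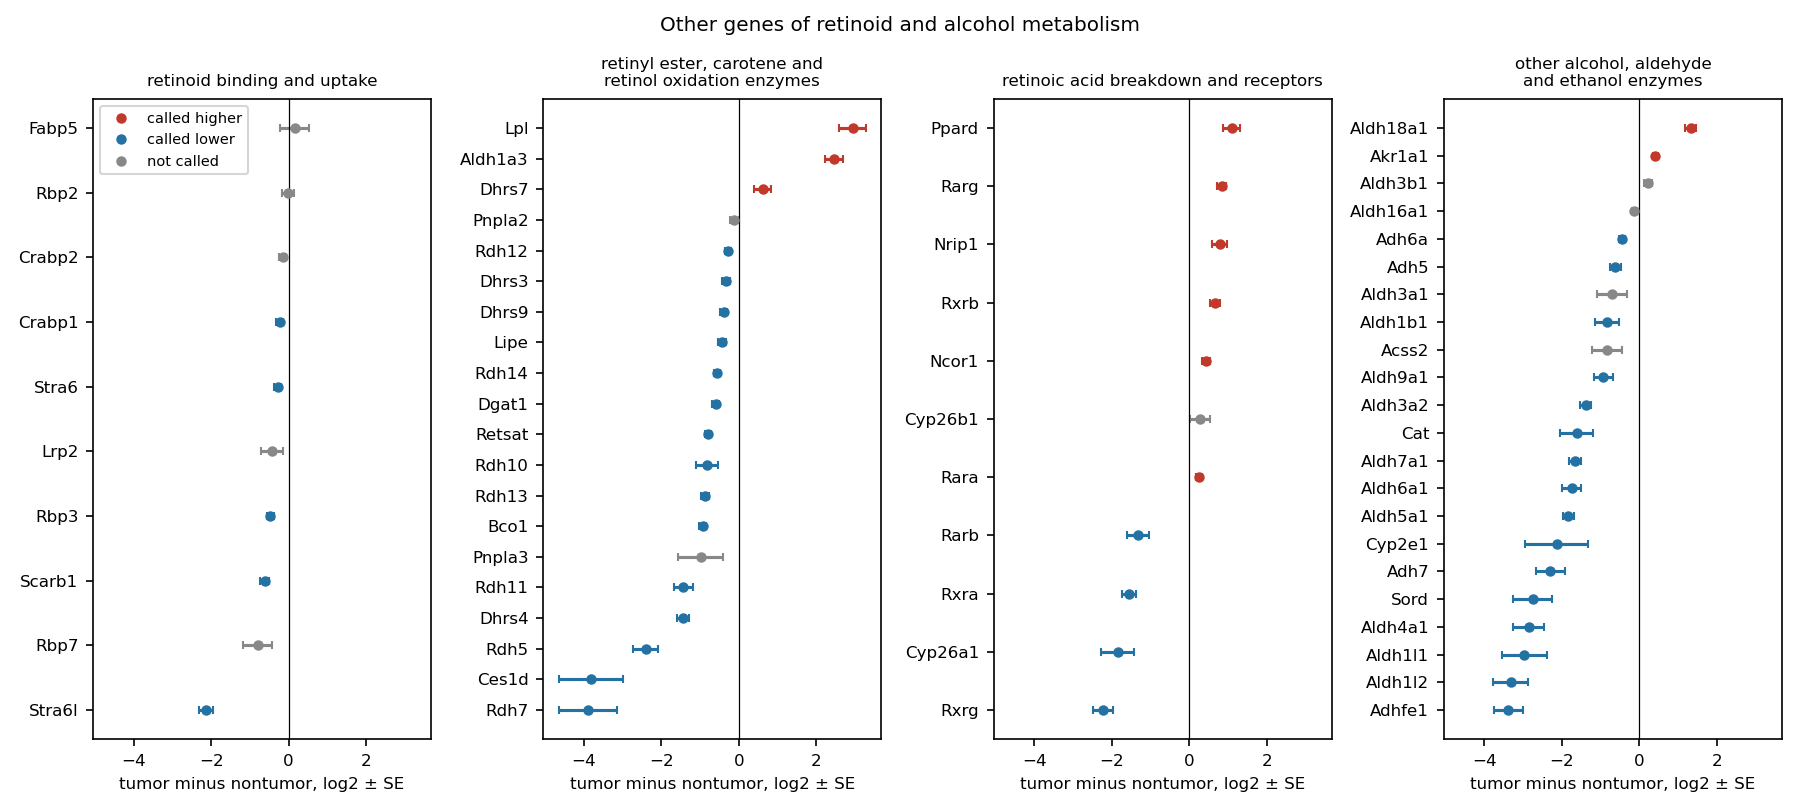
Difference between LEC tumor and LEC nontumor liver (log2, ± limma SE) for the measured genes of 4 further lists of retinoid and alcohol metabolism; red points were called higher, blue lower and grey not called. Most ester, oxidation and aldehyde genes lie left of 0, with Lpl and Aldh1a3 far to the right, while the receptors lie on both sides.

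Nontumor LEC liver at 67 weeks was then set against LEA liver of that age. Strain and the liver disease of LEC rats differ together here and cannot be told apart. With limma, 0 of the 9 genes were called, beside 0.563% of all genes, and 1 of the 9 had an unadjusted p under 0.05, a share near that of all genes (1758 of 14217). That gene was Aldh1a1: all 4 nontumor arrays (11.81 to 13.05) were above the LEA array (11.54), a difference of 1.04 ± 0.45 with an unadjusted p of 0.0474 and an adjusted p of 0.403. The 95% interval of the Aldh1a1 difference was 0.01 to 2.06. The other 8 genes differed by between -0.21 and 0.15. Their intervals were narrow for Aldh2 (-0.62 to 0.19) and Lrat (-0.59 to 0.57) and wide for Rbp4 (-3.96 to 3.62), where the spread of the tumor arrays enters.

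A pair of related genes did pass the test between nontumor LEC and LEA liver. Bco1, which cleaves beta-carotene into retinal, was at 8.13 to 8.52 on the nontumor arrays and 10.01 in LEA (difference -1.72 ± 0.15, limma adjusted p = 0.00151). It was also low in LEC liver at 4, 26 and 39 weeks, at 8.36, 8.19 and 8.31. Aldh1b1, a mitochondrial aldehyde dehydrogenase related to Aldh2, was at 6.74, 6.86, 7.88 and 8.14 on the nontumor arrays, against 11.02 in LEA (-3.61 ± 0.49, adjusted p = 0.0162). In the LEC pools of 4, 26 and 39 weeks Aldh1b1 was at 10.45, 10.22 and 9.89, and the nontumor arrays were also lower than the 4-week pool (-3.04 ± 0.49, adjusted p = 0.0464).

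Tumor liver against LEA liver gave 2 members called higher and 2 lower, where 27.1% of all genes were called higher and 19.2% lower. This comparison shares the tumor arrays with the one against nontumor liver. Aldh1a2 (3.18 ± 0.36, limma adjusted p = 0.000288) and Lrat (1.20 ± 0.25, adjusted p = 0.00624) were higher. Adh4 (-2.53 ± 0.35, adjusted p = 0.000771) and Aldh2 (-1.11 ± 0.18, adjusted p = 0.00160) were lower. Rbp4 (-3.27, adjusted p = 0.147), Ttr (-1.93, adjusted p = 0.211) and Adh1 (-1.48, adjusted p = 0.0730) were not called against the single LEA array. Aldh1a1 and Rdh16 in tumor differed from LEA by 0.12 and -0.08 and were not called either.

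Across ages, Rdh16 was the member whose level in LEC liver differed most. It was 10.19 at 4 weeks, 11.79 at 26 weeks and 11.90 at 39 weeks, and on the 67-week nontumor arrays it lay between 8.04 and 9.07; the LEA array at 67 weeks stood at 8.37. The 3 younger LEC pools were above all tumor, nontumor and LEA arrays. Nontumor liver at 67 weeks was lower than the 26-week pool by -3.28 ± 0.33 (9.68-fold, limma adjusted p = 0.00859; 0.197% of genes called lower) and lower than the 39-week pool by -3.39 ± 0.33 (10.4-fold, adjusted p = 0.00777; 0.141% of genes called lower). Against the 4-week pool, the one with the same Xist and Eif2s3y pattern as the 67-week arrays, the difference was -1.67 ± 0.33 and was not called (adjusted p = 0.0836). With the spread taken from the nontumor arrays alone, neither difference was called, and hardly any of all genes were.

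Genes known for sex-biased levels in rat liver differed on the same arrays. The mean of 10 male-biased genes was 10.78, 12.01 and 12.08 at 4, 26 and 39 weeks, 8.99, 8.62, 10.31 and 10.08 on the nontumor arrays and 9.03 in LEA. The mean of 11 female-biased genes was 9.73, 8.68 and 8.42 at 4, 26 and 39 weeks, with 9.56 to 10.57 on the nontumor arrays and 10.89 in LEA. Single genes departed from their list, and those named here are not all of them. Female-biased Hao2 was higher at 26 and 39 weeks (12.54 and 12.51) than in nontumor liver (mean 10.01). Male-biased Stac3 was higher in LEA (12.20) than at 26 and 39 weeks (9.75 and 8.18). Sult2a1, listed as female-biased, lay in the range of absent bacterial RNA on all 12 arrays. Rdh16 was thus highest on the arrays with the highest male-biased mean and with Eif2s3y; the part of sex in its profile was not tested, and at 26 and 39 weeks it cannot be told apart from age. On the tumor arrays both means were lower, at 6.12 to 8.24 for male-biased and 6.40 to 8.59 for female-biased genes, while Rdh16 stayed between 8.19 and 8.38.

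**Figure D5:**
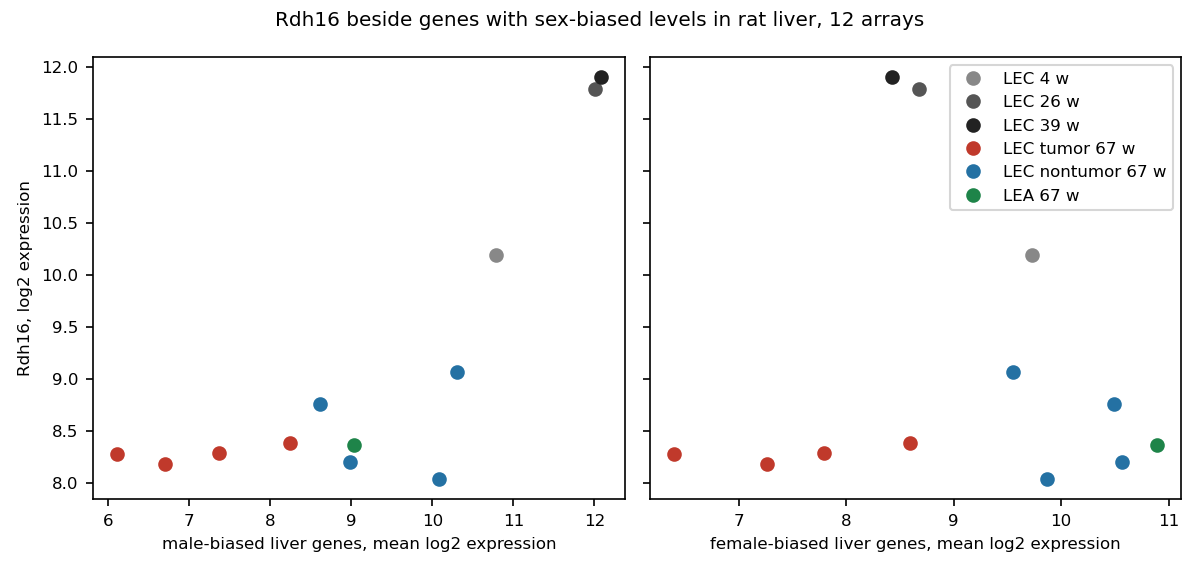
Log2 expression of Rdh16 on each of the 12 arrays against the mean log2 expression of 10 male-biased (left) and 11 female-biased (right) liver genes; colours mark the groups. The 26-week and 39-week arrays lie at the top, with male-biased means of 12.01 and 12.08, and the 4-week array lies below them at 10.19.

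Aldh1a1 in the single LEC pools was at 12.36, 12.71 and 13.03 at 4, 26 and 39 weeks, while the nontumor mean at 67 weeks was 12.58 ± 0.53 (SD, n = 4). At 2-fold or more, 2.31%, 4.01% and 4.41% of all genes differed from LEA at 4, 26 and 39 weeks, with no replicate check; Rdh16 did so at each age, by 10.7-fold at 26 weeks, and Aldh1a1 at 26 weeks (2.26-fold) and 39 weeks. Against the 4-week pool, 3.13% of genes differed by 2-fold or more at 26 weeks and 3.06% at 39 weeks; Rdh16 was 3.04-fold higher at 26 weeks and 3.28-fold higher at 39 weeks, and Adh4 2.70-fold lower at 26 weeks. Adh4 was highest at 4 weeks (9.10), with 7.66 at 26 weeks and 8.23 at 39 weeks, and averaged 8.05 ± 0.34 in nontumor liver at 67 weeks. Its nontumor level was 1.05 below the 4-week pool, a difference limma did not call (-1.05, adjusted p = 0.250). Lrat was at 9.06, 9.19 and 8.81 at 4, 26 and 39 weeks, above all nontumor arrays and below all tumor arrays; its differences of -0.79 from 4 weeks (adjusted p = 0.231) and -0.92 from 26 weeks (adjusted p = 0.259) were not called. Against the 4-week pool, limma called 0 of the 9 genes (0.464% of all genes) and 3 had an unadjusted p under 0.05, namely Rdh16, Adh4 and Lrat, as had 1919 of all 14217 genes.

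The remaining members had narrow ranges outside the tumor. Rbp4 ran from 13.43 to 13.74, Ttr from 14.07 to 14.22, Adh1 from 13.59 to 14.07 and Aldh2 from 12.44 to 12.79 over the 8 arrays that are not tumor, and Aldh1a2 from 8.42 to 8.91. Rbp4, Ttr and Adh1 were bright, as was albumin (nontumor mean 14.56). Whether the signal levels off at such values was not tested. The other Adh1 probe set varied more, averaging 10.83 in nontumor liver, with 10.29, 9.94 and 10.34 at 4, 26 and 39 weeks and 11.03 in LEA; limma called none of its differences between nontumor liver and these pools. In the order of group levels, tumor was lowest for Rbp4, Ttr, Adh1, Adh4, Aldh2 and Rdh16 and highest for Lrat and Aldh1a2, whereas LEA was lowest for Aldh1a1. For Rbp4, Ttr, Adh1, Aldh2 and Aldh1a2 every neighbouring pair among the other groups differed by less than 1 SD pooled over tumor and nontumor arrays. That SD was 1.81 for Rbp4, 1.26 for Ttr and 0.63 for Adh1, far above the SD of the nontumor arrays alone (0.07, 0.06 and 0.06), so it says little about these 3 genes. With the spread of the nontumor arrays alone, Adh1 differed between nontumor liver and the 26-week pool by 0.38 (limma unadjusted p = 0.0272, adjusted p = 0.640). For Adh4 only the neighbours 39 weeks, LEA and nontumor did so, and for Rdh16 the 39-week and 26-week pools did, as did nontumor with LEA and LEA with tumor. For Lrat the 4-week pool lay within that distance of the 26-week and 39-week pools, and LEA lay within it of nontumor. For Aldh1a1 the only neighbours further apart were the 4-week pool and tumor.

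The genes whose values ran most like each member's over the 12 arrays are given as a description, since the difference between tumor and nontumor liver sets most of the range. For Rbp4 they were Cyp2d2 and Apoc1 (Pearson r = 0.998 each), and for Ttr Apoh (0.999) and Apoc1 (0.998). Adh1 ran most like Ugt2b15 (0.990), Adh4 like Inhbc (0.987) and Aldh2 like Pex13 (0.989). Lrat ran most like Alg10 (0.950) and Nid1 (0.946), and Aldh1a2 like Cfap300 (0.998) and Ddah2 (0.997). Aldh1a1 had its nearest gene in Eif4ebp3 (0.933) and Rdh16 in Cimap1b (0.978). Among the members, Aldh1a2 ran opposite to Aldh2 (r = -0.96) and to Adh4 (r = -0.96).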

How the data were processed

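Liver total RNA of 12 samples (3 µg each) was labelled with biotin and measured on Affymetrix rat expression arrays, per the labels' protocols. The submitters' processing notes name RMA and R 2.6.1 as the source of the log2 expression values that the authors deposited. RMA removes background, forces a common distribution on the arrays and combines probes into probe sets. Whether all arrays were normalized together is not stated; their medians were 7.39 to 7.51, and the values were used as deposited. The tissue and age of each group came from sample titles, which do not name the strain.

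Of 31099 probe sets, 57 controls were left out. The annotation gave 20826 of 31042 a single gene, 436 several and 9780 none; 20764 symbols were updated through Entrez identifiers, and probe sets with several genes were not used. Gene coordinates are those of RefSeq GRCr8; the arrays' build is not given in the sources used here. One limma 3.58.1 model of group means (R 4.3.3, lmFit and eBayes) covered the 12 arrays with 6 residual and 2.84 prior degrees of freedom. The 4 lone arrays do not inform the spread and are assumed to vary like the replicated groups. P-values are two-sided, adjusted by Benjamini-Hochberg over 31042 probe sets. Pools compared with each other have no test. The members and gene lists were chosen with earlier results of these data known. The rule for named genes took the 9 members, up to 4 largest called rises and falls of each further list, 14 retinoid and alcohol genes and 13 cell markers in any case, and the nearest genes by correlation; not all are printed. Cyp26b1, Ngfr, Hgf, Gfap, Colec11, Upk1b, Efemp1, Xist and Eif2s3y were named after their values were seen. The highest of 27 bacterial probe sets on an array, whose RNA is absent from liver, was taken as its background. The test was checked on simulated data with the same spread in every group and few changed probe sets, which these data do not have. There, tumor against nontumor recovered 43 of 50 changes of 1 log2 unit, and 13 of 175 calls were false. Fewer small changes were recovered for nontumor against the lone LEA array. Alternatives covered scaling, filtering, probe set averaging, a replicate block, a robust prior, the arrays fitted and leaving out each replicate; taking the spread from the nontumor arrays alone was chosen after seeing the data.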

Additional observations from a re-analysis of the deposited data

Results flagged for a closer look

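In 110 groups of 4 arrays searched, 7 had 1 array that stood far from the other 3 by Dixon's criterion; chance gives about 1 in 20 groups, and none of the 7 belongs to the 9 members. Tumor array 3 was the lowest for Rarg (8.28, next 8.65) and for Msln (13.18, next 13.78) and the highest for Cd68 (11.46, next 11.15). Nontumor array 2 was the highest for Adh7 (8.84, next 7.88) and for Msln (9.17, next 8.27). Nontumor array 3 was the highest for Aldh3a1 (8.59, next 6.82). Nontumor array 4 was the lowest for Alb (14.53, next 14.57).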

How the results depend on the processing

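Tumor against nontumor gave 8 members called, and 7 or 8 under other scalings, filters, averaging, priors and fitted arrays, 6 with a 2-fold change also required. Leaving out single arrays gave 5 to 8, with 2 higher and 3 to 6 lower. Rbp4, Ttr and Aldh1a1 were the members whose call was lost: Ttr with quantile normalization again (adjusted p = 0.0506) or a robust prior (0.0577), the others as given beside them. The labels do not say that a number marks a set of pairs, and the arrays were not treated as paired. Same-numbered tumor and nontumor arrays had deviations correlated at 0.05, 0.14, -0.08 and 0.14, and differently numbered ones at -0.14 to 0.11. Values this small cannot decide whether the numbers mark pairs. With the number as a replicate block 7 members were called, 2 higher and 5 lower, Aldh1a1 being lost (limma adjusted p = 0.0530). Lrat, Adh1, Adh4 and Aldh1a2 kept their call and direction against nontumor liver in each alternative that tested them, and so did Aldh2 except where a 2-fold change was required, which also removed Aldh1a1. Tumor against LEA gave 4 members called, and 3 to 5 otherwise, the extra one being Adh1 with the mean of its probe sets (-2.23, adjusted p = 0.0173) or without tumor array 3 (-1.78, 0.0172). Nontumor against LEA and against 4 weeks gave 0 in each. Against 26 and 39 weeks the call of Rdh16 stood in each other alternative. It was lost with the nontumor spread alone, where hardly any of all genes were called. The cause was not tested.

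Some differences that were not called changed sign. Nontumor against LEA, Lrat was 0.0060 with array medians subtracted and 0.0204 with quantile normalization again, and between -0.0873 and 0.120 with single arrays left out; Adh1 was 0.0134 with quantile normalization again. In that comparison, leaving out single nontumor arrays put Aldh1a2 between -0.0357 and 0.117 and Rdh16 between -0.0347 and 0.309. Tumor against LEA, Aldh1a1 was between -0.0631 and 0.232. Against 4 weeks, nontumor Ttr was between -0.0375 and 0.0083 and Aldh1a2 between -0.0353 and 0.117. Against 26 weeks, Aldh1a1 was between -0.296 and 0.115. Against 39 weeks, Aldh1a2 was between -0.0762 and 0.0762. The number of arrays, and for Adh4 in tumor a signal near that of absent RNA, limit these values.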
